A study of Mus musculus with 24 samples.

Results

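The myeloid C-type lectin receptors are described here in livers of mice kept on a high-fat diet or its control diet. The group is 10 receptor genes, chosen by symbol as *Clec4d*, *Clec4e*, *Clec4n*, *Clec5a*, *Clec7a*, *Clec4a1*, *Clec4a2*, *Clec4a3*, *Clec10a* and *Clec12a*, and each matched 1 of the 56205 gene IDs in the count table. Polyadenylated RNA of whole liver from C57BL/6J mice was sequenced in 24 libraries. Of these, 12 came from mice on the high-fat diet and 12 from mice on the control diet, each for 20 weeks. The labels call the high-fat diet FFD, and the study's methods describe a diet of palm oil, fructose and cholesterol, begun in young adults. Both sexes were used, with 6 mice per diet and sex, but the labels name neither the sex nor the animal behind a library. Levels are given in CPM, which sets counts against library size after TMM scaling, and a gene was called changed at an adjusted p of at most 0.01 with an absolute log2 fold change over 0.5.

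C-type lectin receptors are membrane proteins of macrophages, monocytes, neutrophils and dendritic cells that bind sugars, lipids or proteins of microbes and of damaged cells. Activating members signal through the kinase Syk, either by pairing with an adaptor that carries an immunoreceptor tyrosine-based activation motif (ITAM) or through a related motif in their own tail, and reach the CARD9, BCL10 and MALT1 complex. Inhibitory members carry an ITIM motif that recruits phosphatases such as SHP-1. In the liver such receptors are known from resident macrophages, called Kupffer cells, and from recruited monocytes.

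By GENCODE M21, whose GRCm38 coordinates correspond to the mm10 build named in the submitters' processing notes, 9 of the 10 genes lie on chromosome 6. *Clec4a1* (122921848 to 122934619), *Clec4a3* (122952515 to 122969875), *Clec4a2* (123106428 to 123143999), *Clec4n* (123229843 to 123247021) and *Clec4d* (123262111 to 123275265) lie in this order on the plus strand, and *Clec4e* (123281789 to 123289870) lies next to them on the minus strand. *Clec12a* (129342691 to 129365303, plus) and *Clec7a* (129461591 to 129472779, minus) belong to the Dectin-1 cluster on that chromosome, *Clec5a* (40574894 to 40585821, minus) stands apart, and *Clec10a* (70156197 to 70170834, plus) is on chromosome 11. GENCODE M21 lists *Clec7a* as a polymorphic pseudogene and RefSeq as protein coding. By exact sequence *Clec4d*, *Clec4e*, *Clec5a*, *Clec7a*, *Clec4a1* and *Clec4a3* share no stretch of 51 bases with the transcripts of any other gene. Matches with differing bases were not searched, and how reads that fit several genes were counted is not known here. Shared stretches made up 0.384% of those of *Clec12a*, 0.622% of *Clec4n*, 6.69% of *Clec4a2* and 8.75% of *Clec10a*. The partners of *Clec4a2* include *Clec4a4* and *Clec4b1*, and those of *Clec10a* include *Mgl2*.

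RefSeq promoter windows (GRCm38.p6, the 250 bases before an annotated transcript start) were found for 8 of the 10 genes, not for *Clec4n* and *Clec10a*. A transcript start need not be the outer end of the gene. The window of *Clec12a* lies inside that gene, which RefSeq begins at 129349783. The *Clec4a3* window from 122952394 to 122952643 runs past that gene's first base at 122952515. They were searched on both strands for GAGGAA, the core bound by the myeloid factor PU.1, for the AP-1 motif TGANTCA and for the cAMP response element TGACGTCA, 3 motifs of which none contains another. These genes had 10 windows, as *Clec4a3* and *Clec7a* had more than 1 each. The windows of each of these genes overlap, and those of *Clec7a* hold the same GAGGAA, which counts once for each window. GAGGAA was in 8 of the 10 windows, against 23.3% of all 32851 windows. By gene it was in a window of 7 of the 8, all but *Clec4a2*, and 1 window of *Clec4a3* had no match. The share by gene over all genes was not computed. TGANTCA was in 1 of the 10 windows against 6.75% of all windows, and TGACGTCA in none of the 10 against 1.55%. Shown 5′ to 3′ are the receptor with the highest level per kilobase (*Clec7a*), the one with the largest fold change (*Clec5a*), the ITIM-bearing receptor whose levels did not overlap between the diets (*Clec12a*) and one whose change differed between sets of libraries (*Clec4a1*), with GAGGAA on either strand in capitals. A match is a description of these letters and not a bound site.
Clec7a, chr6:129472780-129473029, minus strand: 
Clec5a, chr6:40585806-40586055, minus strand: 
Clec12a, chr6:129349994-129350243, plus strand: 
Clec4a1, chr6:122921598-122921847, plus strand: 

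Depth was 14468418 to 22112552 counts per library. TMM factors were 0.994 to 1.34 with the high-fat diet and 0.679 to 1.01 with the control diet. After this scaling 3 counts equal 0.118 to 0.305 CPM. All 10 receptors passed the filter of at least 1 count in 12 libraries. The thinnest, *Clec4e*, was at 0 counts in 6 control libraries and 1 high-fat diet library. Liver identity was checked with 6 hepatocyte markers, whose summed level was 36034 to 90812 CPM with the high-fat diet and 81391 to 129246 CPM with the control diet. The libraries of each diet fall into 6 with *Xist* at 2664 to 6285 counts and no count of the Y-linked *Ddx3y*, and 6 with *Xist* at 0 to 3 counts and *Ddx3y* at 448 to 1016 counts. Replicates 1 to 6 of each diet are the former and 7 to 12 the latter. High-fat diet replicate 3 stood apart through neutrophil and monocyte genes, and several results are given with and without it.

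All 10 receptors rose on the high-fat diet by edgeR's quasi-likelihood test, where 13.2% of the 17913 genes tested were called higher and 18.2% called in either direction. Their median log2 fold change was 1.69, from 1.08 for *Clec10a* to 2.82 for *Clec5a*, and that of all genes tested was -0.03. None of the 10 was called lower, against 4.99% of all genes. The levels of 3 receptors, *Clec4n*, *Clec5a* and *Clec12a*, did not overlap between the diets, with every high-fat diet library above every control library, as held for 1.48% of all genes. Whole-liver RNA cannot tell more receptor-bearing cells from more receptor mRNA per cell. The summed level of the 10 was 42.1 to 106 CPM on the high-fat diet, median 56.9, and 5.46 to 36.6 CPM on the control diet, median 13.9.

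**Figure D1:**
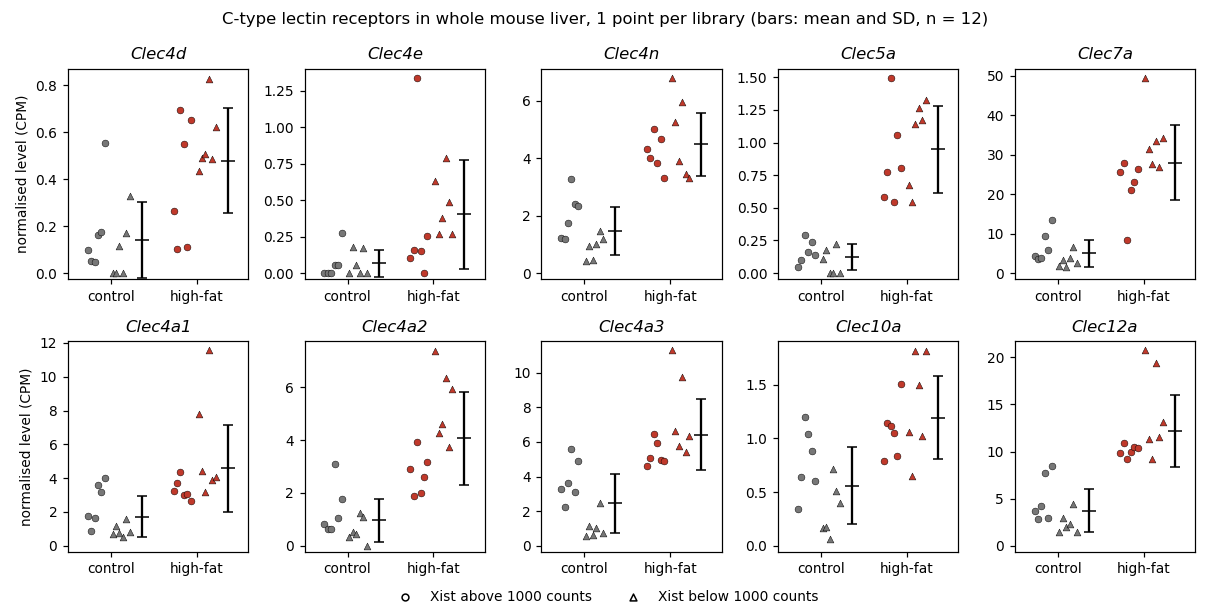
Level of each receptor in CPM (y axis, linear) in each of the 12 control (grey) and 12 high-fat diet (red) libraries, with circles for libraries with Xist above 1000 counts, triangles for those below, and the mean and SD beside them. The diets do not overlap for Clec4n, Clec5a and Clec12a, and control circles sit mostly above control triangles.

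*Clec7a* encodes Dectin-1, the receptor for fungal beta-glucan, which signals through an ITAM-like motif of its own. Its level on the high-fat diet had a lowest value of 8.47, a median of 27.3 and a highest of 49.4 CPM, and on the control diet 1.61, 3.86 and 13.6 CPM. In 11 of 12 high-fat diet libraries it lay above every control library, and the exception was replicate 3, which lay below control replicates 4 and 6. *Clec7a* rose 5.54-fold (log2 fold change 2.47, SE 0.29, edgeR adjusted p = 1.07e-06), and its log2 fold change was 2.56 (SE 0.27) without replicate 3. Per kilobase of exon it had the highest level of the 10 on either diet, 10.6 ± 3.62 CPM per kilobase (SD, n = 12) against 1.90 ± 1.31. On the control diet *Clec4a3*, at 1.84 ± 1.29 CPM per kilobase, was within that spread.

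The make-up of the summed level differed between libraries. *Clec7a* held 36.9% to 50.2% of the summed CPM of the 10 receptors in 11 high-fat diet libraries and 22.3% to 37.0% in the control libraries. In 10 of those 11 libraries its share was above that of every control library, whereas in replicate 3 it was 20.1%. *Clec12a* had a median share of 19.5% with the high-fat diet and 23.6% with the control diet, with ranges of 15.8% to 21.9% and 14.8% to 32.7% that overlap. These shares are descriptions, and no test was made of them.

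*Clec5a* encodes MDL-1, which signals through the adaptors DAP12 and DAP10. It was low in all libraries, with 10 to 32 counts with the high-fat diet and 0 to 6 with the control diet. In CPM its lowest, median and highest values were 0.542, 0.931 and 1.49 with the high-fat diet and 0, 0.123 and 0.288 with the control diet. Even the lowest high-fat diet library lay above the highest control library. *Clec5a* rose 7.08-fold (log2 fold change 2.82, SE 0.36, edgeR adjusted p = 2.55e-06), a value that rests on few control counts, since 9 of 12 control libraries had 3 or fewer. Without high-fat diet replicate 3, its highest library, the log2 fold change was 2.75 (SE 0.36).

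Dectin-2, Mincle and MCL, encoded by *Clec4n*, *Clec4e* and *Clec4d*, pair with the Fc receptor gamma chain. Dectin-2 binds mannose-rich glycans of fungi, and Mincle binds glycolipids of mycobacteria and SAP130 from dying cells. Per kilobase *Clec4n* had the highest level of these receptors, and in CPM it had 3.31, 4.16 and 6.81 CPM as lowest, median and highest value with the high-fat diet and 0.432, 1.21 and 3.28 CPM with the control diet. The gap between the diets was narrow, with high-fat diet replicate 6 at 3.31 CPM and control replicate 4 at 3.28 CPM. *Clec4n* rose 3.02-fold (log2 fold change 1.59, SE 0.25, edgeR adjusted p = 2.06e-05).

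*Clec4d* and *Clec4e* lay near the limit of detection. *Clec4d* had 2 to 21 counts with the high-fat diet and 0 to 12 with the control diet, or 0.104, 0.498 and 0.828 CPM against 0, 0.107 and 0.554 CPM as lowest, median and highest values. Only 4 of 12 high-fat diet libraries exceeded the highest control library, replicate 6. Its log2 fold change was 1.67 (SE 0.46, edgeR adjusted p = 0.00567), and the call was lost when 1 of 3 libraries was left out, with adjusted p from 0.0103 to 0.0115 without high-fat diet replicate 10, control replicate 2 or control replicate 3.

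*Clec4e* had 0 to 25 counts on the high-fat diet, median 5.5, and 0 to 6 on the control diet, median 0.5. The 25 counts, or 1.33 CPM, were those of replicate 3, and the other 11 high-fat diet libraries reached 0.789 CPM. With all libraries its log2 fold change was 2.44 (SE 0.62, edgeR adjusted p = 0.00287), and without replicate 3 it was 2.12 (SE 0.60, edgeR adjusted p = 0.00669). The diets overlapped throughout the control range, since 1 high-fat diet library had no count of *Clec4e*.

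The DCIR family of the Dectin-2 cluster includes *Clec4a2*, which encodes DCIR1 with an ITIM in its tail. *Clec4a2* had 1.87, 3.85 and 7.39 CPM as lowest, median and highest value with the high-fat diet and 0, 0.74 and 3.12 CPM with the control diet, and 8 of 12 high-fat diet libraries lay above every control library. It rose 4.17-fold (log2 fold change 2.06, SE 0.37, edgeR adjusted p = 9.45e-05). *Clec4a3* had 4.59, 5.84 and 11.3 CPM against 0.541, 2.36 and 5.58 CPM, and *Clec4a1* had 2.66, 3.82 and 11.6 CPM against 0.509, 1.38 and 4.01 CPM. Of the 12 high-fat diet libraries 7 lay above every control library for *Clec4a3* and 5 for *Clec4a1*. Their log2 fold changes were 1.38 (SE 0.31, edgeR adjusted p = 0.00101) and 1.40 (SE 0.32, edgeR adjusted p = 0.00125).

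*Clec12a* encodes MICL, an ITIM-bearing inhibitory receptor that recognises uric acid crystals. Its level was 9.17, 10.7 and 20.8 CPM as lowest, median and highest value with the high-fat diet and 1.41, 2.94 and 8.49 CPM with the control diet. It rose 3.26-fold (log2 fold change 1.70, SE 0.25, edgeR adjusted p = 1.19e-05). High-fat diet replicates 7 and 10, at 20.8 and 19.4 CPM, lay far above the other 10, which were between 9.17 and 13.1 CPM. The same pair held the highest values of *Clec4a1*, *Clec4a2*, *Clec4a3* and *Clec4n*, and replicate 7 held that of *Clec7a*.

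*Clec10a*, the galactose-binding lectin MGL1 of macrophages and dendritic cells, had the smallest change. Its lowest, median and highest values were 0.65, 1.09 and 1.82 CPM with the high-fat diet and 0.0576, 0.555 and 1.20 CPM with the control diet. Only 4 of 12 high-fat diet libraries lay above every control library. The log2 fold change was 1.08 (SE 0.31, edgeR adjusted p = 0.00718), and the call was lost in 9 of the 24 fits that left out 1 library, with values of 0.97 to 1.25 over those 24. Adjusted p reached 0.0134 without high-fat diet replicate 12.

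Ordered by level per kilobase on the high-fat diet, *Clec7a* was followed by *Clec4a3* (4.84 ± 1.55 CPM per kilobase, SD, n = 12), *Clec4n* (3.16 ± 0.774), *Clec4a1* (2.94 ± 1.65), *Clec12a* (2.20 ± 0.70), *Clec4a2* (1.39 ± 0.597), *Clec10a* (0.411 ± 0.133), *Clec4d* (0.299 ± 0.139), *Clec5a* (0.247 ± 0.0868) and *Clec4e* (0.0808 ± 0.0745). The ranges of neighbours in this order overlapped except between *Clec4a2* and *Clec10a*. On the control diet the order was the same save that *Clec4a1* and *Clec4n* changed places, at 1.10 ± 0.782 and 1.04 ± 0.593 CPM per kilobase. Exon length was the merged length of all GENCODE M21 exons of a gene, 5528 bases for *Clec12a* and 1327 for *Clec4a3*. The order thus depends on the annotation: on the high-fat diet *Clec12a* had a mean of 12.2 CPM and *Clec4a3* of 6.43 CPM.

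The signalling molecules these receptors use were taken as a list of 15 genes, of which 11 rose, none fell and 4 were not called. The median log2 fold change was 1.01, below the 1.69 of the receptors. The ITAM adaptor DAP12 (*Tyrobp*) rose by a log2 fold change of 1.52 (SE 0.24), *Card9* by 1.49 (SE 0.28), the phospholipase *Plcg2* by 1.47 (SE 0.21) and *Syk* by 1.46 (SE 0.20), with edgeR adjusted p of at most 0.000156 for each. The Fc receptor gamma chain (*Fcer1g*), partner of Dectin-2, Mincle and MCL, rose by 1.45 (SE 0.20, edgeR adjusted p = 5.04e-06). The phosphatase gene *Inpp5d* rose by 1.24 (SE 0.17, edgeR adjusted p = 5.04e-06). *Ptpn6*, which encodes SHP-1, rose by 0.54 (SE 0.11, edgeR adjusted p = 0.000426). CARD9's partners *Bcl10* and *Malt1* had log2 fold changes of 0.35 and -0.27, the tyrosine phosphatase *Ptpn11* -0.04 and the adaptor *Blnk* 0.53, and these 4 were not called. Without high-fat diet replicate 3, 10 of the 15 were called higher, *Hcst* being lost with edgeR adjusted p = 0.0152.

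**Figure D2:**
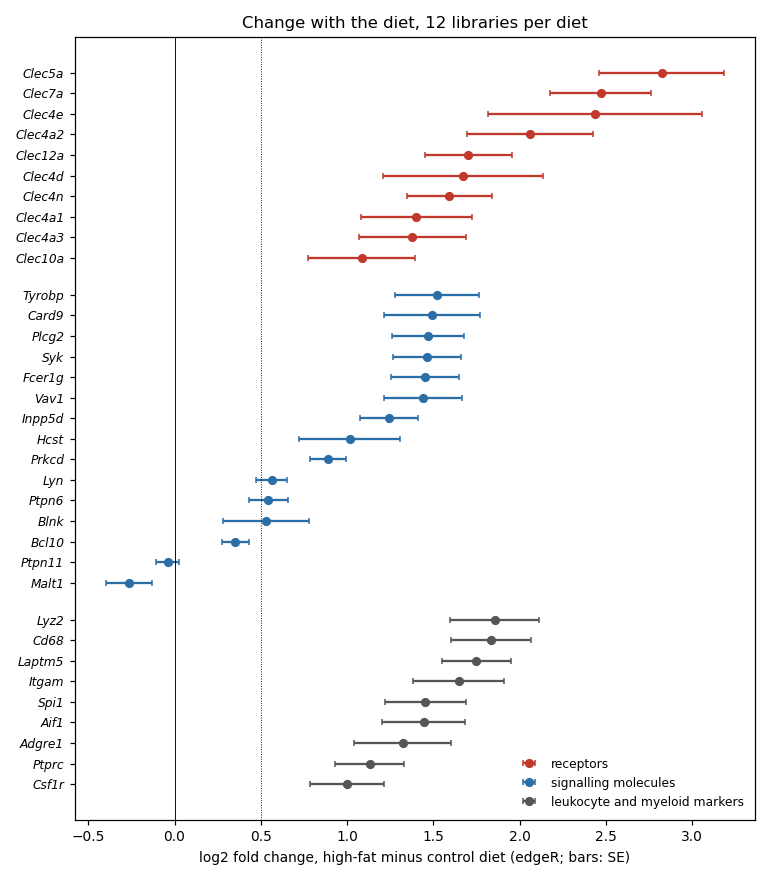
Log2 fold change of high-fat minus control diet (x axis, points with SE bars, edgeR, 12 libraries per diet) for the 10 receptors, 15 signalling molecules and 9 leukocyte and myeloid markers, with the threshold of 0.5 dotted. The receptors span 1.08 to 2.82, the signalling molecules -0.27 to 1.52 and the myeloid markers 0.998 to 1.86.

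Protein ligands of the group and cytokines made downstream were described in the same way. Of 5 ligand genes, 3 rose: *Anxa5* with a log2 fold change of 1.90, *Anxa1* with 1.43 and *Vim* with 1.37. The Mincle ligand gene *Sap130* had a log2 fold change of 0.09 (SE 0.12) and *Lgals9* one of -0.18 (SE 0.08), and neither was called. Of 10 cytokine genes 9 were tested and 4 rose: the chemokines *Ccl2* (3.15, SE 0.32) and *Ccl3* (3.07, SE 0.54), *Tnf* (2.09, SE 0.34) and *Il1b* (1.23, SE 0.34). *Il6* was below the filter.

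Other C-type lectins did not move as one. Of 30 further lectin genes 25 were tested, and 5 rose while 3 fell, with a median log2 fold change of 0.28. Among those that rose were *Clec4b1* (2.26, SE 0.54) and *Clec4a4* (2.10, SE 0.44), which share stretches of 51 bases with *Clec4a2*. Among those that fell were *Cd209b* (-3.03, SE 0.55), which had at most 11 counts in a library, and *Clec2d* (-2.01, SE 0.37). The Kupffer cell lectin *Clec4f* had a log2 fold change of 0.20 (SE 0.28) and the mannose receptor *Mrc1* one of 0.01 (SE 0.18), and neither was called. Without high-fat diet replicate 3, 6 of the 25 rose and 3 fell.

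Markers of the cells that can bear these receptors moved beside them. All 9 leukocyte and myeloid markers rose, with a median log2 fold change of 1.45. Their summed level was 478 to 1103 CPM on the high-fat diet, or 488 to 1103 CPM without replicate 3, against 108 to 433 CPM on the control diet. Relative to the median of 1.45 the log2 fold changes of *Clec5a*, *Clec7a* and *Clec4e* were larger by 1.37, 1.02 and 0.99, whereas those of *Clec4a1*, *Clec4a3* and *Clec10a* lay below it, at -0.05, -0.07 and -0.37. These differences are descriptions of fitted values. All 5 monocyte markers rose (17.9 to 81.0 CPM summed, or 17.9 to 59.1 CPM without high-fat diet replicate 3, against 6.60 to 17.4 CPM), and so did 4 of 5 lipid-associated macrophage markers, among them *Gpnmb* (5.49, SE 0.55) and *Trem2* (3.47, SE 0.35), while *Fabp5* fell (-2.01, SE 0.38). That list summed to 179 to 925 CPM, or 209 to 925 CPM without high-fat diet replicate 3, against 70.9 to 292 CPM. Of 6 Kupffer cell markers only *Cd5l* rose (1.69, SE 0.25), with 343 to 968 CPM summed against 256 to 483 CPM. Of 6 tested neutrophil markers 5 rose with all libraries and 3 without high-fat diet replicate 3. Their summed level was 187 CPM in that library, 6.39 to 14.4 CPM in the other 11 and 1.84 to 7.24 CPM in the control libraries. Of 7 dendritic cell markers 3 rose, and of 8 T and NK cell and 4 B cell markers none was called. Lists of other liver cells moved too. Of 6 hepatocyte markers 4 fell (median log2 fold change -0.67), of 6 stellate cell markers 3 rose, among them *Col1a1* (3.12, SE 0.42), and of 4 cholangiocyte markers 3 rose (median 2.51), with a summed level of 151 CPM in high-fat diet replicate 9. The part of these cells in the receptors' change was not tested.

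High-fat diet replicate 3 had an uncommon mix of myeloid transcripts. The neutrophil genes *S100a8* and *S100a9* were at 66.2 and 81.9 CPM in it and at most at 1.46 and 1.93 CPM in the other 11 high-fat diet libraries, and *Camp* was at 21.1 CPM against at most 0.211 CPM. The lipid-associated macrophage genes *Trem2* and *Gpnmb* were lowest in it, at 3.25 and 13.3 CPM against 9.96 to 30.5 and 41.3 to 113 CPM in the other 11. The receptors differed in where this library stood. *Clec7a* was lowest there (8.47 CPM against 20.96 to 49.4 CPM in the other 11), whereas *Clec4e* (1.33 CPM against at most 0.789 CPM) and *Clec5a* (1.49 against at most 1.33 CPM) were highest. *Clec12a* was at 9.22 CPM there, inside the range of 9.17 to 20.8 CPM of the other 11. Without this library all 10 receptors were still called higher.

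**Figure D3:**
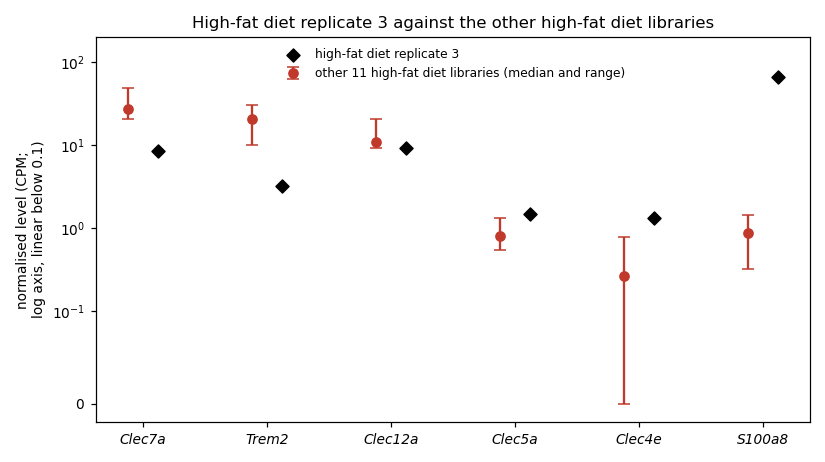
Level in CPM (y axis, log scale above 0.1 and linear below) of 4 receptors, Trem2 and S100a8 in high-fat diet replicate 3 (black diamonds) and in the other 11 high-fat diet libraries (red, median with range). Clec7a and Trem2 of replicate 3 lie below the range of the others, Clec5a, Clec4e and S100a8 above it, and Clec12a inside it.

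The change with the diet was larger in the libraries with *Xist* below 1000 counts for *Clec4a3* and *Clec4a1*. Among those libraries *Clec4a3* had 5.41 to 11.3 CPM on the high-fat diet (median 6.47) and 0.541 to 2.49 CPM on the control diet (median 0.871), with no overlap. Among the libraries with *Xist* above 1000 counts it had 4.59 to 6.45 CPM (median 5.02) and 2.23 to 5.58 CPM (median 3.47), which overlap. The log2 fold change was 2.80 (SE 0.34) in the former and 0.50 (SE 0.19) in the latter, and the interaction of diet and set was 2.29 (SE 0.40, edgeR adjusted p = 0.000657). *Clec4a1* had log2 fold changes of 2.65 (SE 0.37) and 0.42 (SE 0.30) and an interaction of 2.21 (SE 0.49, edgeR adjusted p = 0.00481). By limma-voom the interaction held for *Clec4a3* (adjusted p = 0.000799) and was lost for *Clec4a1* (adjusted p = 0.0316).

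Only these 2 of the 10 receptors passed the interaction test at an adjusted p of at most 0.01, against 4.06% of all genes tested, or 2.58% with a larger rise where *Xist* was below 1000 counts. For *Clec12a*, *Clec4a2*, *Clec7a* and *Clec4n* the interaction was 1.52, 2.17, 1.68 and 1.34 with edgeR adjusted p of 0.0136, 0.0196, 0.0227 and 0.0273. *Clec10a*, *Clec4d*, *Clec5a* and *Clec4e* had 1.59, 1.27, 0.99 and 0.40 with edgeR adjusted p of 0.0617, 0.437, 0.442 and 0.902, and that of *Clec4e* ranged from -1.01 to 1.67 when 1 library was left out. Leaving out control replicate 11 raised the number that passed from 2 to 6, and leaving out high-fat diet replicate 10, control replicate 6 or control replicate 7 lowered it to 1, *Clec4a3*. Without high-fat diet replicate 3 the same 2 passed.

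Fitted alone, the libraries with *Xist* below 1000 counts had all 10 receptors called higher (14.3% of genes tested there), and 9 of the 10, all but *Clec10a*, did not overlap between the diets (12.6% of all genes). Those with *Xist* above 1000 counts had 3 called higher, *Clec4n*, *Clec5a* and *Clec7a* (2.91% of genes tested there). *Clec4n*, *Clec5a* and *Clec12a* did not overlap (3.51% of all genes). Without high-fat diet replicate 3, *Clec12a* was called too, with edgeR adjusted p = 0.00844 against 0.011 with it, and the log2 fold change of *Clec4e* in that set dropped from 2.22 to 0.95. Past the threshold in one set and not in the other is no test of a difference, which is the interaction above.

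**Figure D4:**
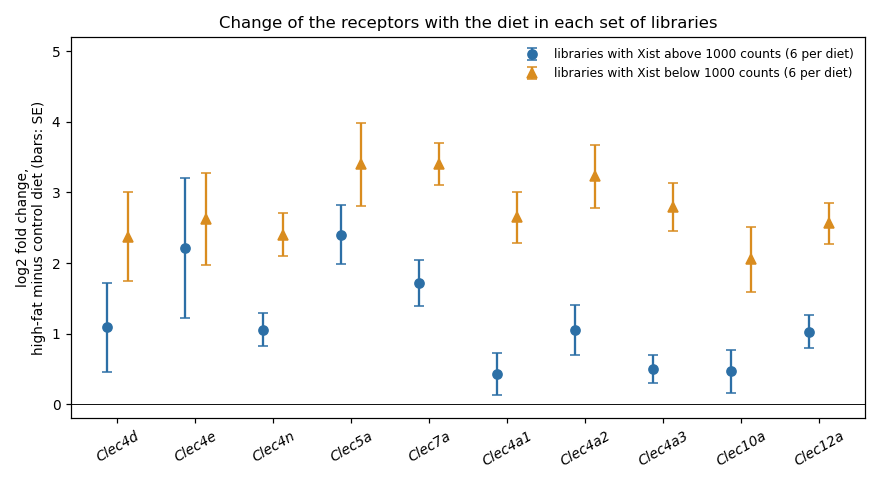
Log2 fold change of high-fat minus control diet (y axis, points with SE bars, edgeR fitted in each set) of the 10 receptors in the libraries with Xist above (blue circles) and below 1000 counts (orange triangles), 6 libraries per diet in each. Values are 0.42 to 2.40 above and 2.05 to 3.40 below, and the interaction passed by edgeR for Clec4a1 and Clec4a3, of which Clec4a3 alone passed by limma-voom.

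The sets also differed within the control diet. Control libraries with *Xist* below 1000 counts had lower *Clec4a3* than those above (log2 difference -1.79, SE 0.30, edgeR adjusted p = 0.000155), 1 of 10 receptors past the thresholds where 3.50% of all genes were lower and 2.24% higher. *Clec4n*, *Clec4a1* and *Clec12a* had differences of -1.15, -1.41 and -1.03 with edgeR adjusted p of 0.0102, 0.0119 and 0.0206. On the high-fat diet the difference for *Clec4a3* was 0.50 (SE 0.26, edgeR adjusted p = 0.204), and none of the 10 passed, where 2.97% of all genes were called higher and 3.42% lower. The list of leukocyte and myeloid markers moved in the same way. Of its 9 markers 6 passed the interaction test with a larger rise where *Xist* was below 1000 counts, and 6 of 9 were lower in those control libraries. *Spi1*, which encodes PU.1, was at 4.32 to 7.93 CPM in those control libraries and at 11.1 to 24.8 CPM in the other control libraries. Of the 15 signalling molecules 7 passed in the same direction, as did 3 of 8 T and NK cell markers. The lists of single myeloid cell types mostly did not pass the interaction test. In that direction 1 of 6 Kupffer cell and 1 of 6 neutrophil markers passed, and 1 Kupffer cell marker passed with the opposite sign. Within the control diet, 3 of 6 Kupffer cell markers were lower where *Xist* was below 1000 counts and 1 was higher. There 1 of 6 neutrophil markers was lower and 0 were higher. Of the 5 monocyte, 5 lipid-associated macrophage and 7 dendritic cell markers none passed, and none was lower in the control libraries with *Xist* below 1000 counts. The part of these genes in the receptors' difference was not tested.

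From library to library, after the mean of each diet and set was subtracted on log2(CPM + 1), the receptors varied together to unequal degrees. Over the 45 pairs of receptors Pearson's r had a median of 0.35 and ranged from -0.24, for *Clec5a* with *Clec7a*, to 0.88, for *Clec4a3* with *Clec12a*, over the 24 libraries, which share depth and the balance of cell types in each liver. Without high-fat diet replicate 3 the lowest was -0.07, for *Clec4n* with *Clec5a*. The 10 genes whose level followed the mean of the receptors most closely, among 13909 genes with a mean of at least 10 counts, included *Fcer1g* (r = 0.89), *C1qb* (0.89), *AB124611*, *Ifi30*, *Arhgdib*, *Actb*, *Lair1* and *C1qc* (0.85). The ranking is loose, as 5 of these 10 stayed with a pseudocount of 0.1 in place of 1, 6 with Spearman's rho and 4 without high-fat diet replicate 3.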

How the data were processed

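For each of 24 mouse liver libraries the authors deposited raw counts, 1 whole number for every Ensembl gene. Their processing notes name bcl2fastq, STAR 2.7.3a and mm10, and the counting program and annotation are not given in the sources used here. Symbols came from GENCODE M21 (51745 of 56205 IDs matched), and the other IDs held 0.0723% of the counts. The test was the quasi-likelihood F test of edgeR 4.0.16 (R 4.3.3) with TMM factors and diet as its single term, on the 17913 genes counted at least once in 12 or more libraries, and p-values were adjusted over all of these by Benjamini-Hochberg. Standard errors were derived from the fold change and F. A further fit added the set of libraries by *Xist* count and its interaction with diet. The test of diet, but not the interaction, was checked on simulated counts.

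Alternatives used DESeq2 1.42.0, limma 3.58.1, sva 3.50.0, other scalings, filters and thresholds, a replicate block and each library left out. The contrasts of sets within a diet, the interaction with a library left out, the likeness and the *Xist*-above fit without high-fat diet replicate 3, and the fit without control replicates 6 and 11 were added after seeing the data. No pair of libraries in a diet agreed within sampling noise (chi-square per degree of freedom at least 9.48). The labels do not name separate animals, so p-values measure the spread between libraries. The receptors and lists were chosen with earlier results of these data known. The rule for named genes took all receptors, the called genes of a list (the 4 with the largest change where over 6 were called), markers given beside a result and the 10 genes most like the receptors, of which some are not reported here. *Fcer1g*, *Hcst*, *Inpp5d*, *Ptpn6*, *Clec2h*, *Spi1* and uncalled genes of the lists were named after their values were seen.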

Additional observations from a re-analysis of the deposited data

Results flagged for a closer look

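The change with the diet differed between the sets of libraries for *Clec4a1*, by 2.21 on the log2 scale, and for *Clec4a3*, by 2.29, each larger where *Xist* was below 1000 counts (test of the interaction, edgeR adjusted p = 0.00481 and 0.000657). For *Clec4a3* it passed in all 24 fits that left out 1 library, with adjusted p of at most 0.00177, and for *Clec4a1* in 21 of 24, with adjusted p up to 0.0122 without control replicate 6. By limma-voom *Clec4a3* alone passed.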

How the results depend on the processing

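Each receptor had a positive log2 fold change in every alternative in which it could be fitted. With at least 10 counts in every library only 3 could be fitted, and all 3 were called, with 1226 genes called higher. In the libraries with *Xist* above 1000 counts 3 receptors were called, with 525 genes higher and 162 lower, and without high-fat diet replicate 3 among them 4 were called, with 686 and 260. In those below, 1430 genes were lower. Library totals in place of TMM gave 3827 genes higher and 226 lower and moved the median of all genes to 0.26. Calling at an adjusted p of 0.05 with no limit on the fold gave 3709 and 3388, and a log2 fold change over 1 gave 216 lower. *Clec10a* lost its call without a filter (edgeR adjusted p = 0.0103) and without control replicates 6 and 11 together (0.0141). The interaction passed for 1 receptor by limma-voom. The likeness ranking kept 5, 6 and 4 of its 10 genes with the other pseudocount, Spearman's rho and without high-fat diet replicate 3. Leaving out 1 library gave 8 to 10 receptors called higher and 0 lower, 2137 to 2464 genes higher, 745 to 995 lower, and 1 to 6 receptors passing the interaction.

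With the replicate number as a block, 8 receptors were called, and *Clec4e* (log2 fold change 2.39, edgeR adjusted p = 0.0118) and *Clec10a* (1.21, edgeR adjusted p = 0.0112) were not, with 2063 genes higher and 844 lower. Nothing in the labels says that a number marks a shared litter or day. Deviations of same-numbered libraries from their diet's mean correlated above 0.1 for 11 of 12 numbers (up to 0.54) and at -0.09 for number 9. Same-numbered libraries also share their *Xist* set, and with the mean of diet and set subtracted 4 of 12 were above 0.1 (-0.26 to 0.28). Only 6 of 24 libraries were closest to their own number, or 5 of 24 with the set subtracted. The numbers were therefore not taken as pairs. Depth limits *Clec4d*, *Clec4e* and *Clec5a*, whose control libraries mostly held 3 counts or fewer.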

Other observations

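High-fat diet replicate 3 also held *Marco*, a scavenger receptor of Kupffer cells, at 118 CPM, against 0.146 to 30.5 CPM in the other 11 high-fat diet libraries and 4.12 to 15.1 CPM in the control libraries, and the monocyte gene *Ly6c2* at 9.06 CPM against 0.528 to 1.91 CPM in the other 11. *Clec2h*, a lectin gene outside the receptor group, had an interaction of the opposite sign (-2.93, edgeR adjusted p = 0.00265), with higher levels in control libraries with *Xist* below 1000 counts (log2 difference 3.48, edgeR adjusted p = 2.40e-06).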
